A study of Mus musculus with 10 samples.

Results

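A set of 10 adipose-related genes, taken by symbol from the deposited gene table, were followed across all ovaries of the series: the adipokines Adipoq, Lep and Retn, the receptors Adipor1, Adipor2, Cdh13 and Lepr, and the adipocyte genes Pparg, Fabp4 and Plin1. All 10 were found among the 55487 genes of the table, and all 10 passed the filter on low counts that left 18956 genes for testing. The rule that picks the genes names them by their known roles and uses no measured value, but the set was drawn up with earlier results of these data known.

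RNA from 10 mouse ovaries was sequenced. The Control group comprised 4 ovaries of C57BL/6J females aged 8 weeks. The Aged group (n = 3) and the Aged+CF group (n = 3) were C57BL/6J females, with an age of 11 months in the labels, whereas the methods of the study name a slightly younger age. Aged+CF mice were given 200 µL of cell-free fat extract (CEFFE, 3 µg/µL protein) through the tail vein every other day. CEFFE is the fluid left after adipose tissue is emulsified, centrifuged and sterilised, so that cells and debris are removed. Control and Aged mice were given saline instead. No engineered allele is named for any group, and all mice were primed with 10 IU of PMSG, a gonadotropin that stimulates follicle growth, 48 h before ovary collection. The samples are whole ovaries, named below by group and the number in their titles. Nothing in the labels says how much of the fat that surrounds the ovary was trimmed away.

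Adipokines are hormones that fat cells secrete. Adiponectin (Adipoq) acts through the 7-pass receptors AdipoR1 and AdipoR2, which raise AMPK and PPARα activity and carry ceramidase activity, and its large multimers bind T-cadherin (Cdh13) on endothelium and muscle. Leptin (Lep) signals the size of fat stores through the cytokine receptor LepR and the JAK-STAT pathway, and resistin (Retn) is an adipocyte hormone in rodents. Pparg is the nuclear receptor that drives adipocyte differentiation, while Fabp4 carries fatty acids in the cytosol and Plin1 coats the lipid droplet. In the ovary, adiponectin and leptin receptors are known in granulosa, theca and luteal cells, Pparg is known in granulosa cells, and Fabp4 is also made by endothelium and macrophages.

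The starts of the adipokine genes are shown because their RNA levels moved together from ovary to ovary, and the start of Adipor1 is shown beside them because its level varied little. The RefSeq promoter table (build GRCm38.p6) had an entry for 8 of the 10 genes. The windows hold the 250 bases before the annotated start, 5′ to 3′ on the strand of the gene, at chr16:23146286-23146535 (plus strand) for Adipoq, chr8:3655520-3655769 (plus strand) for Retn, chr6:29059971-29060220 (plus strand) for Lep and chr1:134415128-134415377 (plus strand) for Adipor1. Capitals mark matches, on either strand, to 6 motifs: the C/EBP palindrome TTGCGCAA, the nuclear receptor half-site AGGTCA, the direct repeat of that half-site with 1 spacer base, the CCAAT box CCAAT, the GC box GGGCGG and the TATA box TATAAA.
Adipoq: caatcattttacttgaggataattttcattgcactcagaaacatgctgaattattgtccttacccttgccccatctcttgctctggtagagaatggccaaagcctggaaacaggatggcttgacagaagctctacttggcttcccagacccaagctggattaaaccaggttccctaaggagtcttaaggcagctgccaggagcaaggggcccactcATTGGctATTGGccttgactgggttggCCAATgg
Retn: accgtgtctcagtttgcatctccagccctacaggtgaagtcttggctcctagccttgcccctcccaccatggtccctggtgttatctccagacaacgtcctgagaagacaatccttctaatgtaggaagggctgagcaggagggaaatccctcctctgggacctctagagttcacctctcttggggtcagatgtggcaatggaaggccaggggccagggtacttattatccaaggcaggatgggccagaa
Lep: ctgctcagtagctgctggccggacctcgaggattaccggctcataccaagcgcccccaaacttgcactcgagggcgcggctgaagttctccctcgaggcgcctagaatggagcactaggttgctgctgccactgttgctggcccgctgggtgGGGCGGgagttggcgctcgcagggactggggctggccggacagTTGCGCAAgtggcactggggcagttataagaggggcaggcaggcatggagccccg
Adipor1: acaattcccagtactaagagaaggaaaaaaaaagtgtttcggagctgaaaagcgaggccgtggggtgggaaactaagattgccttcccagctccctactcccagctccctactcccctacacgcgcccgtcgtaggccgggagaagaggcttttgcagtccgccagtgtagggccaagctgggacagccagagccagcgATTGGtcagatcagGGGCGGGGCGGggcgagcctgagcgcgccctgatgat
The Lep window held the C/EBP palindrome, which starts at position -55 from the gene start and was present in 0.164% of the 32851 promoter windows of the table. C/EBP proteins are adipocyte transcription factors. The Adipoq window held 3 CCAAT boxes, a motif found in 33.8% of windows, and the Adipor1 window held 1 CCAAT box and 2 overlapping GC boxes, the latter found in 32.7% of windows. The Retn window held none of the 6 strings. A match is a description of letters, and the 3 adipokine windows had no motif of this set in common.

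Per length, the adiponectin receptors Adipor1 and Adipor2 stood far above the hormone itself in these ovaries, whereas Cdh13 stood below it on average. FPKM values, which divide reads by gene length, were used for this ordering. The mean FPKM over the 10 ovaries was 22.2 for Adipor1 and 20.4 for Adipor2, ahead of 7.33 for Pparg, 3.99 for Lepr and 3.97 for Fabp4. Adipoq followed at 2.61, Plin1 at 2.59, Retn at 1.68, Cdh13 at 0.774 and Lep at 0.182. Neighbours in this order did not always differ beyond their spread. Adipor1 (SD 1.81) and Adipor2 (SD 4.57) overlapped, as did Lepr (SD 1.28), Fabp4 (SD 2.32), Adipoq (SD 2.26), Plin1 (SD 0.912) and Retn (SD 1.67). Cdh13 was above Adipoq in Control 32 (0.863 against 0.555) and in Aged 33 (0.620 against 0.0384). The gene lengths behind the authors' FPKM were longer than the annotated exons of each of the 10 genes, for example 5127 bases for Fabp4 against 4489 and 9379 bases for Adipor2 against 5979, so the order of close neighbours depends on these lengths.

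**Figure D1:**
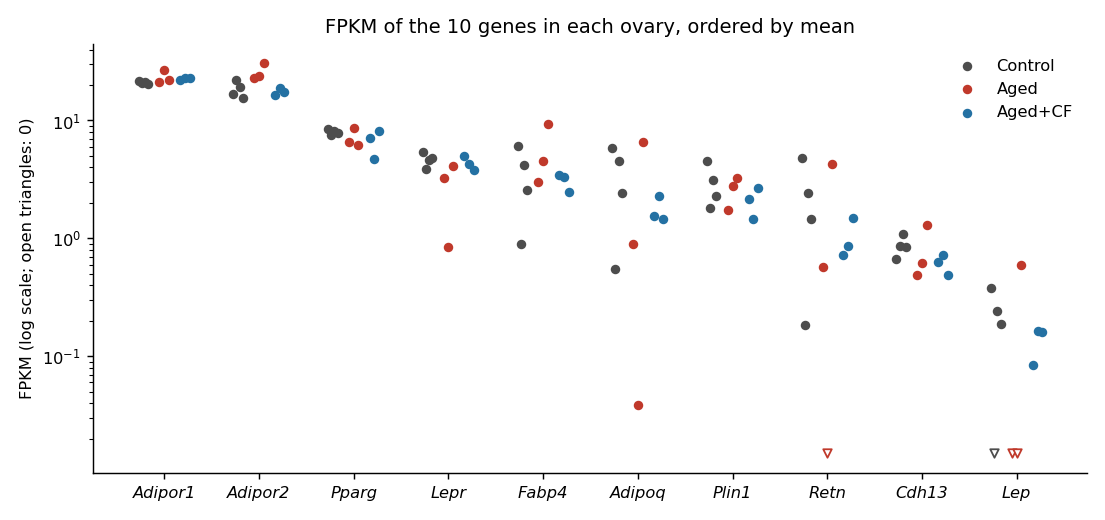
FPKM (log axis) of the 10 genes in each of the 10 ovaries, ordered by their mean, with 1 point per ovary coloured by group and open triangles for an FPKM of 0. Adipor1 and Adipor2 lie above the other genes in every ovary, whereas Adipoq, Retn and Lep spread widely within the Control and Aged groups.

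Expression of the 3 adipokine hormones did not separate the groups. Adipoq (ENSMUSG00000022878, chr16:23146536-23158028, plus strand) was at 9.05, 0.873, 6.95 and 3.76 CPM in Control 31, 32, 33 and 34, at 1.49, 0.0705 and 10.4 CPM in Aged 31, 33 and 34, and at 2.41, 3.68 and 2.34 CPM in Aged+CF 30, 32 and 34. The highest and the lowest ovary were both Aged ovaries, and the range within the Aged group was 148-fold against 10.4-fold within Control and 1.57-fold within Aged+CF. The lowest value, in Aged 33, was a single read, while Aged 34 had 189 reads and Control 31 had 155.

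Retn (ENSMUSG00000012705, chr8:3655770-3660110, plus strand) was likewise highest in Control 31 and Aged 34 and lowest in Aged 33. It was at 8.00, 0.312, 4.01 and 2.44 CPM in the Control ovaries, at 1.01, 0 and 7.39 CPM in the Aged ovaries and at 1.20, 1.49 and 2.58 CPM in the Aged+CF ovaries, in the order used for Adipoq. Lep (ENSMUSG00000059201, chr6:29060220-29073877, plus strand) was at 1.28, 0, 0.811 and 0.636 CPM in the Control ovaries, whereas the Aged ovaries had 0, 0 and 2.095 CPM and the Aged+CF ovaries 0.287, 0.574 and 0.562 CPM. No read of Lep was counted in 3 ovaries, Control 32, Aged 31 and Aged 33. A count of 0 allows up to 3 reads, or 0.187, 0.179 and 0.212 CPM in these libraries, so that Lep was not detectable there rather than absent. Intervals and limits of this kind cover counting error only.

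Between groups, the hormones differed by less than the spread of their ovaries. In the comparison of Aged with Control, the log2 fold change was -0.36 (SE 1.02) for Adipoq, 0.07 (SE 1.22) for Lep and -0.38 (SE 1.13) for Retn, with edgeR adjusted p of 0.851, 0.978 and 0.858. Aged+CF against Aged gave -0.52 (SE 1.10), -0.59 (SE 1.34) and -0.68 (SE 1.23), with edgeR adjusted p of 0.842, 0.855 and 0.814. Aged+CF against Control gave -0.88 (SE 1.04), -0.52 (SE 1.27) and -1.06 (SE 1.17), with edgeR adjusted p of 0.741, 0.889 and 0.721. These standard errors are each larger than 1 log2 unit, that is, than a 2-fold change. A single Aged ovary weighed on these values. Without Aged 34, the log2 fold change of Adipoq was -2.63 for Aged against Control and 1.77 for Aged+CF against Aged, and none of the 3 hormones passed the adjusted threshold there.

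The hormones varied together from ovary to ovary in Control and Aged. Over the 10 ovaries, log2 CPM of Retn followed that of Adipoq (Pearson r = 0.975, permutation p = 6.0e-05, adjusted p = 0.00027; Spearman rho = 0.915, permutation p = 0.00056, adjusted p = 0.00252), and r was 0.934 over 8 ovaries without Aged 33 and Aged 34, the ovaries farthest from the median of Adipoq. Lep followed Adipoq as well (r = 0.880, permutation p = 6.0e-05, adjusted p = 0.00027; rho = 0.948, permutation p = 0.00012, adjusted p = 0.00108), with r = 0.914 over the 8 ovaries. All permutation p were two-sided, and adjustment was over the 9 relations of Adipoq with the other genes. As deviations from the group means, r was 0.974 for Retn and 0.876 for Lep, and these values rest on the wide spread in Control and Aged. In Aged+CF, where the ovaries differed little, the ovary with the highest Retn, Aged+CF 34, had the lowest Adipoq. Adipor1, Adipor2, Cdh13 and Pparg had no relation with Adipoq that passed (Pearson permutation adjusted p of 0.170 to 0.388 over the 10 ovaries). Among 16744 genes with at least 1 CPM on average, the genes most like Adipoq over the 10 ovaries were Cfd (r = 0.982), which encodes adipsin, Car3 (r = 0.978), a carbonic anhydrase abundant in fat, and Retn itself. The genes most like Retn were Car3 (r = 0.978), Adipoq and Cidec (r = 0.970), a lipid droplet protein of adipocytes.

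Cfd was picked for its likeness to Adipoq and Cidec for its likeness to Retn. Cfd, looked up after its likeness was seen, was at 70.4, 4.30, 41.8 and 33.6 CPM in the Control ovaries, at 7.40, 0 and 71.6 CPM in the Aged ovaries and at 8.60, 17.9 and 11.1 CPM in the Aged+CF ovaries. The order was close to that of Adipoq, with Control 31 and Aged 34 at the top and Aged 33 without a read. Cidec had 192 reads in Control 31, 217 in Aged 34 and none in Aged 33. Summed over the list of 28 adipocyte genes, which holds Cfd and Cidec, the level went another way. It was 1161 CPM in Aged 33 against 980 CPM in Aged 34, 1384 CPM in Aged 31 and 684 to 1107 CPM in Control. Such a sum follows the genes with the most reads, so it does not tell how each of the 28 moved. In bulk RNA, fewer cells of a type and less RNA per cell cannot be told apart. How much of the hormone reads came from fat cells around the ovary was not tested.

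**Figure D2:**
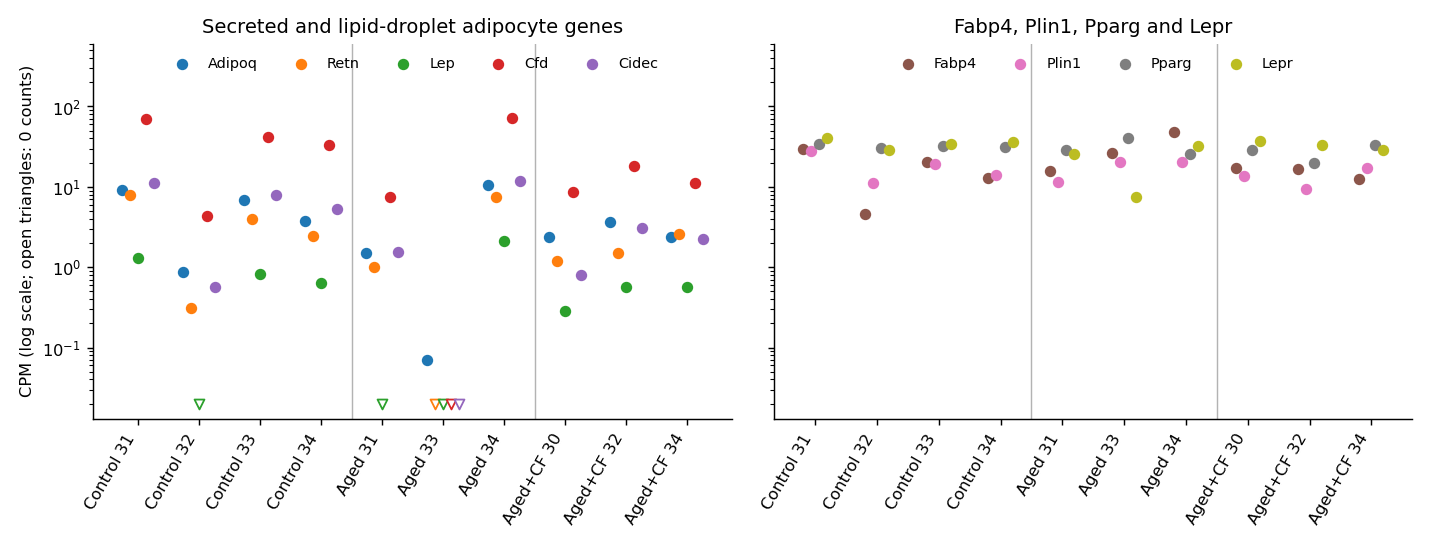
CPM (log axis) in each ovary, with vertical lines between the groups and open triangles for 0 counts. On the left, Adipoq, Retn, Lep, Cfd and Cidec are high together in Control 31 and Aged 34 and lowest in Aged 33, where Lep has 0 counts as it does in Control 32 and Aged 31; on the right, Fabp4, Plin1, Pparg and Lepr vary less, and Fabp4, Plin1 and Pparg keep their level in Aged 33.

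Adipor2 was the one gene of the 10 that passed the fold and adjusted p thresholds in Aged against Control, a call that some alternatives lost. Adipor2 (ENSMUSG00000030168, chr6:119353150-119417704, minus strand), the receptor tied to PPARα signalling, was at 152, 203, 171 and 141 CPM in the Control ovaries, at 224, 259 and 286 CPM in the Aged ovaries and at 152, 176 and 164 CPM in the Aged+CF ovaries. Each Aged ovary lay above each Control ovary and above each Aged+CF ovary, while the Aged+CF values lay inside the Control range. The log2 fold change was 0.62 (SE 0.14, edgeR adjusted p = 0.0170) for Aged against Control, -0.64 (SE 0.15, unadjusted p = 0.00134, edgeR adjusted p = 0.161) for Aged+CF against Aged and -0.03 (SE 0.14, edgeR adjusted p = 0.955) for Aged+CF against Control. The first and second of these comparisons share the 3 Aged ovaries, so they are not independent of each other.

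A gene was called changed where its fold change was at least 1.5 and its adjusted p was below 0.05. By that rule 1 of the 10 genes was called in Aged against Control, where 11.1% of all genes tested were called, so the share of called members was near the background. The deposited design text names the same fold with a p that is not said to be adjusted. By that rule Adipor2 was again the only one of the 10, with 18.2% of all genes called (8.79% higher and 9.44% lower). In Aged+CF against Aged, edgeR called 0 of the 10 at the adjusted p (0.00528% of all genes) and 1 of the 10, Adipor2, at the unadjusted p (7.96% of all genes). DESeq2 called Adipor2 there at an adjusted p of 0.00764, and limma on FPKM called none. With edgeR, 0 of the 10 were called in Aged+CF against Control at the adjusted p (0.179% of all genes, 0.137% higher and 0.0422% lower) or at the unadjusted p (7.69% of all genes, 3.33% higher and 4.36% lower), and DESeq2 and limma called none either. In CPM, 2 of the 10 genes, Adipor1 and Adipor2, had groups without overlap in Aged against Control (27.5% of all genes). There was 1 such gene, Adipor2, in Aged+CF against Aged (18.6% of all genes) and 1, Adipor1, in Aged+CF against Control (21.9% of all genes). These p-values measure the spread between single ovaries. The main edgeR fit used a spread per gene that all groups share. Estimated group by group, the biological coefficient of variation, a relative spread between ovaries, was 0.377 for Aged ovaries. Control ovaries had a lower value of 0.209, and Aged+CF ovaries one of 0.193. The shared spread can therefore be too small for Aged ovaries and too large for the other ovaries.

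The call of Adipor2 stood close to the fold threshold. Leaving out Control 31, Control 34 or Aged 34 gave a log2 fold change of 0.58, 0.54 or 0.57 for Aged against Control, below the 0.585 that a fold of 1.5 requires, although the adjusted p stayed at 0.0437, 0.0489 and 0.0218. Over all alternatives the edgeR, DESeq2 and limma adjusted p ranged from 0.000482 to 0.144, and the log2 fold change from 0.47 to 0.74. For Aged+CF against Aged, the log2 fold change of Adipor2 ran from -0.74 to -0.57 with each ovary left out in turn, and the edgeR adjusted p from 0.0711 to 0.417.

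Markers of several ovarian cell types moved beside Adipor2. The summed level of 12 macrophage markers was 478 to 573 CPM in Control, 884 to 2044 CPM in Aged and 791 to 876 CPM in Aged+CF. The 10 luteal markers summed to 7524 to 14552 CPM in Control, 19709 to 48022 CPM in Aged and 17764 to 27813 CPM in Aged+CF, and the 11 endothelial markers to 574 to 667, 803 to 1011 and 658 to 745 CPM. In Aged against Control, 7 of 12 macrophage, 9 of 10 luteal and 6 of 11 endothelial markers were called higher, and 11 of 12 oocyte markers were called lower, with an oocyte sum of 454 to 628 CPM in Control, 15.2 to 128 CPM in Aged and 170 to 272 CPM in Aged+CF. None of the macrophage, luteal or endothelial markers was at 0 in any ovary. For Aged+CF ovaries the macrophage and luteal sums stayed above the Control range, the oocyte sum stayed below it and the endothelial sum overlapped it. Adipor2 was inside its own Control range. The part of these cell types in the level of Adipor2 was not tested. The genes most like Adipor2 over the 10 ovaries were Tacc1 (r = 0.956), a centrosomal protein gene, Atp6v0d1 (r = 0.952), a subunit of the vesicular proton pump, and Snora70 (r = 0.932), a small nucleolar RNA.

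**Figure D3:**
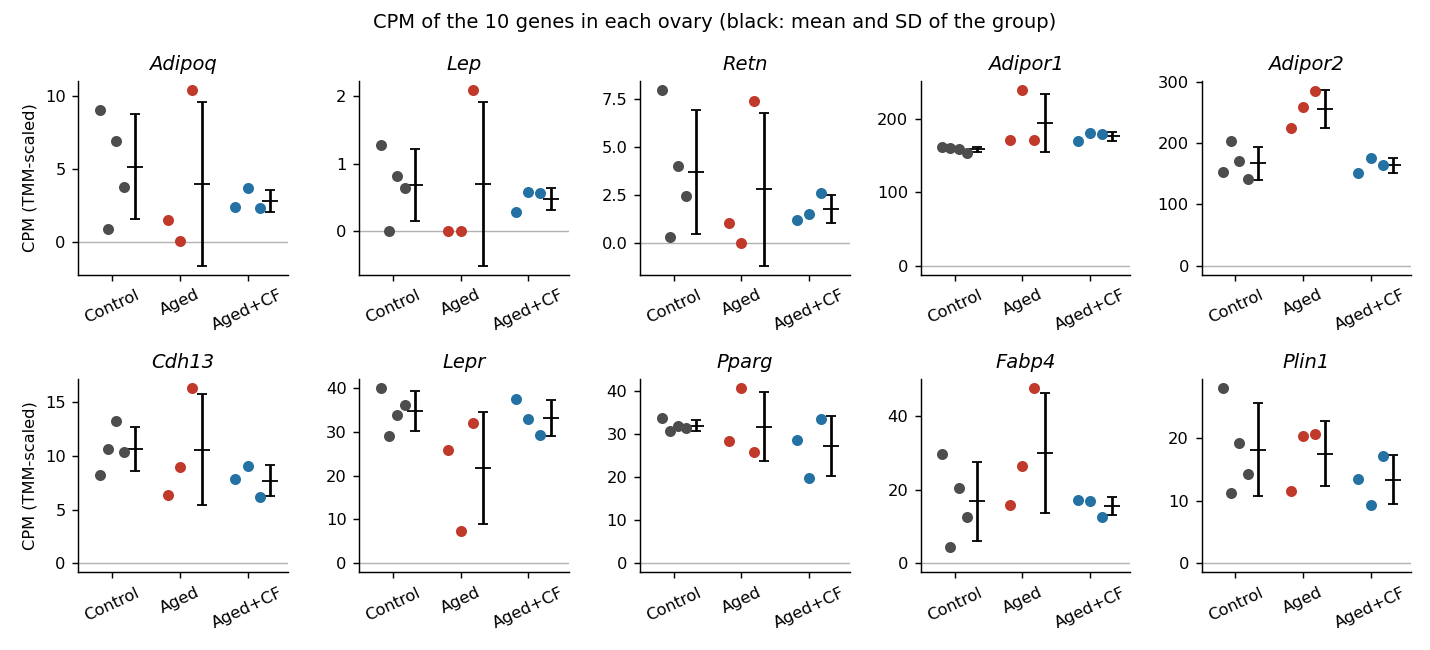
CPM of the 10 genes in each ovary by group (4 Control, 3 Aged and 3 Aged+CF ovaries), with the group mean and SD in black to the right of the points; each panel has its own linear axis with 0 marked. The 3 Aged ovaries of Adipor2 lie above all other ovaries, and the groups of the adipokines overlap.

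Adipor1 (ENSMUSG00000026457, chr1:134415378-134433351, plus strand), the receptor tied to AMPK signalling, was the steadiest of the 10 genes in young ovaries. Control ovaries were at 162, 161, 159 and 154 CPM, Aged ovaries at 172, 240 and 171 CPM and Aged+CF ovaries at 170, 181 and 180 CPM. In CPM, both groups of old ovaries lay above the Control range, and Aged 33 stood apart from the other ovaries. In FPKM, which is not scaled by TMM, Aged 31 (21.26) lay inside the Control range of 20.27 to 21.43. The log2 fold change of Adipor1 was 0.29 (SE 0.12, unadjusted p = 0.0343, edgeR adjusted p = 0.124) for Aged against Control. It was -0.14 (SE 0.13, edgeR adjusted p = 0.620) for Aged+CF against Aged and 0.16 (SE 0.12, edgeR adjusted p = 0.580) for Aged+CF against Control. No difference passed the threshold. The genes most like Adipor1 were Timm8b (r = 0.974), Txndc17 (r = 0.963) and M6pr (r = 0.963).

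The balance of the receptors was compared as the ratio of Adipor2 to Adipor1 FPKM. The ratio was 0.787, 1.06, 0.896 and 0.767 in the Control ovaries, 1.09, 0.900 and 1.39 in the Aged ovaries and 0.748, 0.813 and 0.759 in the Aged+CF ovaries. Aged and Control ovaries overlapped, and each Aged+CF ovary lay below each Aged ovary. The mean ratio was 0.877 ± 0.133 (SD, n = 4) in Control, 1.13 ± 0.249 (SD, n = 3) in Aged and 0.773 ± 0.0347 (SD, n = 3) in Aged+CF. On the log2 scale, Aged exceeded Control by 0.35 (exact permutation test, two-sided, p = 0.114, smallest possible p = 0.0286). Aged+CF was lower than Aged, with a difference of -0.52 (exact permutation test, two-sided, p = 0.1, the smallest p that 3 against 3 ovaries allow). Aged+CF and Control differed by -0.17 (exact permutation test, two-sided, p = 0.286).

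**Figure D4:**
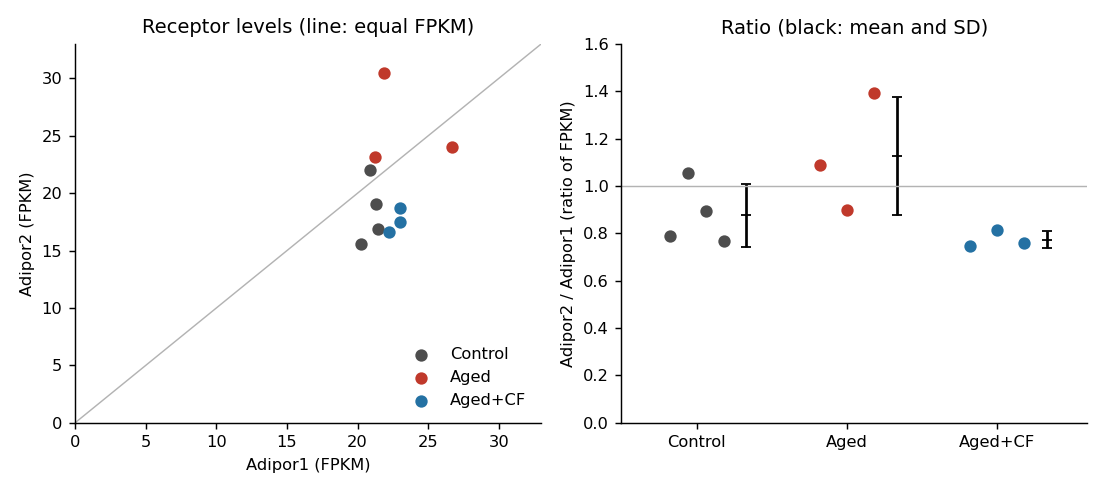
Left: FPKM of Adipor2 against Adipor1 in each ovary, coloured by group, with the line of equal FPKM. Right: ratio of Adipor2 to Adipor1 FPKM by ovary, with the group mean and SD in black; the Aged+CF ovaries lie between 0.748 and 0.813, below the Aged ovaries at 0.900 to 1.39.

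Cdh13 (ENSMUSG00000031841, chr8:118283733-119324921, plus strand), the T-cadherin gene, had the lowest level per length of the 4 receptors. Control ovaries were at 8.17, 10.7, 13.2 and 10.3 CPM, Aged ovaries at 6.38, 8.96 and 16.3 CPM and Aged+CF ovaries at 7.80, 9.08 and 6.19 CPM. The groups overlapped in each comparison, and the highest ovary was Aged 34. Fitted log2 fold changes were -0.0031 (SE 0.30), -0.46 (SE 0.32) and -0.46 (SE 0.31) for Aged against Control, Aged+CF against Aged and Aged+CF against Control, with edgeR adjusted p of 0.996, 0.500 and 0.516. Among the genes most like it were Cfap77 (r = 0.930) and Dnah12 (r = 0.918), genes of motile cilia, after Folr2 (r = 0.935), a macrophage folate receptor. The oviduct gene Ovgp1, looked up after that, was at 298 CPM in Control 33 and 245 CPM in Aged 34 and at most 31.2 CPM in the other 8 ovaries. These were also the ovaries with the highest Cdh13, and the part of oviduct tissue in its level was not tested. Cdh13 overlaps other annotated genes on both strands, and since no source says whether the counting used strand, its reads could be shared with them.

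Lepr (ENSMUSG00000057722, chr4:101717404-101815352, plus strand), the leptin receptor gene, was present in each ovary, including those without Lep. Control ovaries were at 40.0, 29.1, 33.8 and 36.0 CPM, Aged ovaries at 25.8, 7.41 and 31.9 CPM and Aged+CF ovaries at 37.3, 32.9 and 29.2 CPM. Aged 33 lay far below the rest, Aged 31 just below the Control range and Aged 34 inside it. For Lepr the log2 fold change was -0.68 (SE 0.38, edgeR adjusted p = 0.251) for Aged against Control, 0.61 (SE 0.40, edgeR adjusted p = 0.467) for Aged+CF against Aged and -0.07 (SE 0.37, edgeR adjusted p = 0.955) for Aged+CF against Control. Leaving out each ovary in turn moved the first of these between -1.02 and -0.24, the smaller size being without Aged 33.

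Over the ovaries, Lepr followed Adipoq less closely than Retn and Lep did (Pearson r = 0.853, permutation p = 0.00894, adjusted p = 0.0268; Spearman rho = 0.721, permutation p = 0.0239, adjusted p = 0.0718), with r = 0.735 over 8 ovaries without Aged 33 and Aged 34. The genes most like Lepr were Xist (r = 0.990), the RNA that silences an X chromosome in females, Peg3 (r = 0.987), an imprinted gene, and Trerf1 (r = 0.980). Xist ranged from 1066 to 1352 CPM in 9 ovaries and was at 552 CPM in Aged 33. Peg3 ranged from 30.5 to 51.0 CPM in the same 9 ovaries and was at 7.69 CPM in Aged 33. The low Lepr of that ovary stood beside low levels of both genes. What set Aged 33 apart was not tested.

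The adipocyte genes Fabp4, Plin1 and Pparg had the same order as Adipoq among the Control ovaries but not in Aged 33. Control ovaries differed little in Pparg. Over the 10 ovaries its relation with Adipoq did not pass (Pearson r = -0.458, permutation adjusted p = 0.265), and relations with Lep and Retn were not tested. Fabp4 (ENSMUSG00000062515, chr3:10204088-10208576, minus strand) was at 29.8, 4.55, 20.4 and 12.7 CPM in the Control ovaries, whereas the Aged ovaries had 15.8, 26.6 and 47.8 CPM and the Aged+CF ovaries 17.3, 16.9 and 12.7 CPM. Aged 34 and Control 31 were again the highest, but Aged 33 was the third highest ovary, with 377 reads of Fabp4 where Adipoq had 1. Fabp4 had a log2 fold change of 0.83 (SE 0.53, edgeR adjusted p = 0.316) for Aged against Control, -0.95 (SE 0.57, edgeR adjusted p = 0.434) for Aged+CF against Aged and -0.11 (SE 0.54, edgeR adjusted p = 0.948) for Aged+CF against Control. With Adipoq, r was 0.347 over all 10 ovaries (permutation p = 0.314, adjusted p = 0.388), and rho was 0.552 (permutation p = 0.105, adjusted p = 0.236). Over the 8 ovaries without Aged 33 and Aged 34, r was 0.832. Aged 34 was the highest ovary for both genes, whereas Aged 33 was the lowest for Adipoq but among the highest for Fabp4. The relation without Aged 33 alone was not tested.

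Plin1 (ENSMUSG00000030546, chr7:79720218-79732903, minus strand) was at 27.95, 11.2, 19.1 and 14.2 CPM in the Control ovaries, whereas the Aged ovaries had 11.5, 20.2 and 20.6 CPM and the Aged+CF ovaries 13.5, 9.36 and 17.1 CPM. Its range over all ovaries was 2.99-fold, against 148-fold for Adipoq. With Adipoq, r of Plin1 was 0.240 over the 10 ovaries (permutation p = 0.512, adjusted p = 0.512; rho = 0.479, permutation p = 0.167, adjusted p = 0.279) and 0.706 over the 8 ovaries. For Plin1 the log2 fold change was -0.05 (SE 0.34), -0.39 (SE 0.36) and -0.44 (SE 0.34) in the same order of comparisons, with edgeR adjusted p of 0.935, 0.617 and 0.581. The genes most like Plin1 were Lnx2 (r = 0.906), Fhl5 (r = 0.881) and Fbln2 (r = 0.864), and those most like Fabp4 were AC113595.1 (r = 0.936), Rab7 (r = 0.903) and Cmtm1 (r = 0.901). None of these genes is in the adipocyte list.

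Pparg (ENSMUSG00000000440, chr6:115360951-115490399, plus strand) was the steadiest of the adipocyte genes. Control ovaries were at 33.8, 30.8, 31.998 and 31.5 CPM, Aged ovaries at 28.4, 40.8 and 25.9 CPM and Aged+CF ovaries at 28.6, 19.8 and 33.6 CPM. The Control ovaries lay within 1.10-fold of each other, and the old ovaries of both groups scattered around them. Its log2 fold change was -0.01 (SE 0.20), -0.21 (SE 0.21) and -0.23 (SE 0.20), with edgeR adjusted p of 0.971, 0.636 and 0.630. The genes most like Pparg were Tmsb10 (r = 0.950), Casq2 (r = 0.941) and Cox4i2 (r = 0.931). A gene on the other strand overlaps Pparg, and its reads could not be told apart without strand.

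**Figure D5:**
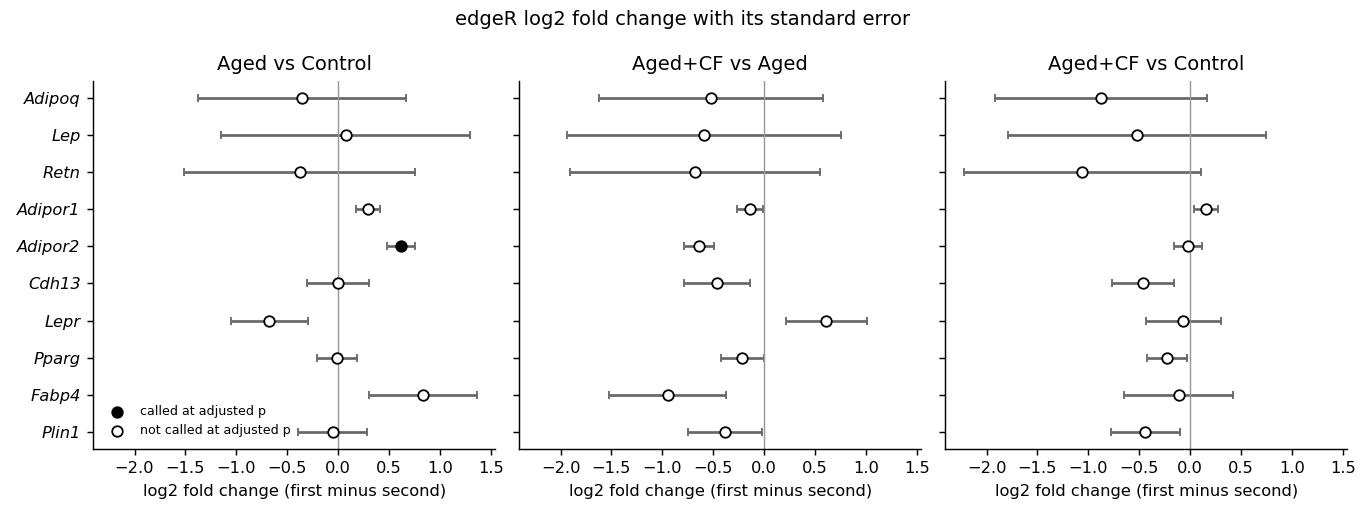
edgeR log2 fold change (first group minus second) of the 10 genes in the 3 comparisons, with bars for 1 standard error; the filled point passed the fold and adjusted p thresholds. Adipor2 is the filled point in Aged against Control, and the error bars of Adipoq, Lep and Retn exceed 1 log2 unit in each comparison.

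Other genes of the same pathways were read from lists by function. Of 28 other adipocyte and lipid droplet genes, 26 were tested. In Aged against Control 2 of the 26 were higher at the adjusted p and 0 were lower, while 5.0% and 6.06% of all genes were called higher and lower, and the median log2 fold change of the 26 was 0.23 against -0.000525 for all genes. The 2 genes were Mrap, a cofactor of melanocortin receptors in fat and in the adrenal gland, at 41.0 ± 10.0 CPM (SD, n = 4) in Control and 136 ± 76.1 CPM (SD, n = 3) in Aged, and Thrsp, a regulator of fatty acid synthesis, at 12.6 ± 6.44 and 31.9 ± 3.45 CPM. Their log2 fold changes were 1.73 (SE 0.41, edgeR adjusted p = 0.0225) and 1.34 (SE 0.36, edgeR adjusted p = 0.0327). Mrap lost its call without Control 32, Control 34 or Aged 33 (edgeR adjusted p of 0.0644 to 0.0701, log2 fold change 1.21 without Aged 33), and Thrsp without Control 32, Control 33, Control 34, Aged 31 or Aged 33 (edgeR adjusted p of 0.0650 to 0.0878). With edgeR, 0 of the 26 were called in Aged+CF against Aged at the adjusted p. At the unadjusted p, 3 were lower and 0 higher (4.05% and 3.91% of all genes): Thrsp (10.9 ± 3.55 CPM in Aged+CF, unadjusted p = 0.00271 and edgeR adjusted p = 0.162), Dgat2, which makes triglyceride (22.9 ± 9.25 in Aged and 11.4 ± 1.98 CPM in Aged+CF, edgeR adjusted p = 0.196), and the hormone-sensitive lipase Lipe (90.4 ± 41.5 and 52.5 ± 14.0 CPM, edgeR adjusted p = 0.288). The median of the 26 in that comparison was -0.61 against -0.02 for all genes. Against Control, edgeR called 0 of the 26 in Aged+CF at the adjusted p. At the unadjusted p, 2 were lower and 0 higher, beside 4.36% and 3.33% of all genes. The 2 were Pck1 (2.12 ± 2.01 and 0.165 ± 0.106 CPM, edgeR adjusted p = 0.181) and Cebpa (185 ± 89.9 and 112 ± 17.97 CPM, edgeR adjusted p = 0.321).

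Downstream of the adiponectin receptors, 19 of 20 listed genes were tested. In Aged against Control, where 6.06% of all genes were called lower, 1 was, Acacb, the acetyl-CoA carboxylase of mitochondria that AMPK inhibits, at 64.9 ± 2.76 CPM (SD, n = 4) in Control and 37.9 ± 6.70 CPM (SD, n = 3) in Aged (log2 fold change -0.78, SE 0.12, edgeR adjusted p = 0.00628). None of the 19 was called in the other comparisons, at the adjusted or the unadjusted p. The median log2 fold change of the 19 was 0.03, -0.05 and 0.05 in Aged against Control, Aged+CF against Aged and Aged+CF against Control.

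Of 16 genes of leptin receptor signalling, all tested, 1 was called lower in Aged against Control and 0 higher, beside 6.06% and 5.0% of all genes. It was Irs2, an insulin receptor substrate that LepR signalling also engages, at 58.4 ± 4.56 CPM (SD, n = 4) in Control, 31.6 ± 5.12 CPM (SD, n = 3) in Aged and 50.7 ± 7.82 CPM (SD, n = 3) in Aged+CF. Irs2 had a log2 fold change of -0.88 (SE 0.14, edgeR adjusted p = 0.00666) for Aged against Control and 0.68 (SE 0.15, unadjusted p = 0.00103, edgeR adjusted p = 0.159) for Aged+CF against Aged. In the latter comparison 2 of the 16 were higher at the unadjusted p, where 3.91% of all genes were. These were Irs2 and Pik3r1, the regulatory subunit of PI3-kinase (182 ± 76.9 CPM in Aged and 313 ± 56.7 CPM in Aged+CF, edgeR adjusted p = 0.211). Socs1, a feedback inhibitor of cytokine receptors, was the 1 gene lower at the unadjusted p in Aged+CF against Control (16.8 ± 10.7 and 7.52 ± 2.08 CPM, edgeR adjusted p = 0.278). Of all genes, 4.36% were lower by that rule.

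Among 19 other adipokines and their receptors, 14 were tested, and 1 was called higher and 2 lower in Aged against Control, beside 5.0% and 6.06% of all genes. Nampt (visfatin), which also makes NAD precursors, was at 76.4 ± 8.41 CPM (SD, n = 4) in Control, 215 ± 147 CPM (SD, n = 3) in Aged and 82.6 ± 9.33 CPM (SD, n = 3) in Aged+CF. Nampt had a log2 fold change of 1.49 (SE 0.36, edgeR adjusted p = 0.0234) for Aged against Control and -1.38 (SE 0.39, unadjusted p = 0.00547, edgeR adjusted p = 0.177) for Aged+CF against Aged. Aged 33 carried much of this, since without it the values of Nampt were 0.84 and -0.71, and the call was lost without Control 31, Control 32 or Control 34 (edgeR adjusted p of 0.0566 to 0.0625). The secreted factor Metrnl was at 66.7 ± 17.3, 27.2 ± 8.59 and 43.3 ± 5.44 CPM in the 3 groups in that order, with -1.30 (SE 0.24, edgeR adjusted p = 0.0109) for Aged against Control and 0.68 (SE 0.25, edgeR adjusted p = 0.245) for Aged+CF against Aged. The ErbB ligand Nrg4 was at 3.60 ± 0.687 and 1.71 ± 0.543 CPM in Control and Aged (log2 fold change -1.06, SE 0.27, edgeR adjusted p = 0.0290), a call lost without Control 31, Control 32, Control 34, Aged 31 or Aged 33 (edgeR adjusted p of 0.0548 to 0.0770). Of the genes called at the unadjusted p in Aged+CF against Control, those with the largest changes were Apln (log2 fold change 1.90, SE 0.70), Gpr1 (-1.08, SE 0.45) and Nrg4 (-0.74, SE 0.27), with edgeR adjusted p of 0.271, 0.322 and 0.260. Apln rested on 1 ovary, with a log2 fold change of 0.58 without Aged+CF 32. Fgf21, Itln1 and Retnlb had no read in any of the 10 ovaries.

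Of 13 paralogs of adiponectin, the C1q/TNF-related proteins, 9 were tested. C1qtnf7 was called lower in Aged against Control, at 30.7 ± 1.84 CPM (SD, n = 4) in Control and 18.2 ± 6.10 CPM (SD, n = 3) in Aged (log2 fold change -0.75, SE 0.19, edgeR adjusted p = 0.0298), and 0 were called higher, beside 6.06% and 5.0% of all genes. It was at 28.8 ± 2.54 CPM (SD, n = 3) in Aged+CF (log2 fold change against Aged 0.66, SE 0.20, edgeR adjusted p = 0.197). C1qtnf4 was lower at the unadjusted p in Aged+CF against Aged (6.03 ± 2.52 and 2.78 ± 0.927 CPM, edgeR adjusted p = 0.215). By that rule 1 of the 9 was higher and 1 lower, beside 3.91% and 4.05% of all genes. The call of C1qtnf7 was lost without any 1 ovary other than Aged 31, with edgeR adjusted p up to 0.0678 in those fits.

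Of 22 PPAR and RXR receptors, coregulators and PPAR target genes, 21 were tested, and 2 were called higher and 1 lower in Aged against Control, beside 5.0% and 6.06% of all genes. Nr1h3, the oxysterol receptor LXRα, was at 8.55 ± 1.71 CPM (SD, n = 4) in Control and 17.6 ± 3.56 CPM (SD, n = 3) in Aged (log2 fold change 1.05, SE 0.24, edgeR adjusted p = 0.0211). Fabp5, the paralog of Fabp4, was at 47.4 ± 5.11 and 90.2 ± 31.4 CPM (log2 fold change 0.93, SE 0.21, edgeR adjusted p = 0.0193), and Pdk4, which restrains glucose oxidation, at 30.3 ± 3.79 and 15.2 ± 3.11 CPM (log2 fold change -0.999, SE 0.22, edgeR adjusted p = 0.0166). Nr1h3 lost its call without Control 33, Control 34 or Aged 33 (edgeR adjusted p of 0.0500 to 0.0593) and Fabp5 without Control 32 (edgeR adjusted p = 0.0527). Fabp5 in Aged+CF was at 48.5 ± 5.39 CPM (SD, n = 3; log2 fold change against Aged -0.90, SE 0.23, edgeR adjusted p = 0.168). Acsl1, an acyl-CoA synthetase, and the coactivator Ppargc1b also passed the unadjusted p in Aged+CF against Aged, with log2 fold changes of -0.88 (SE 0.31) and 0.76 (SE 0.26) and edgeR adjusted p of 0.220 and 0.219. Against Control, Aged+CF ovaries differed in Olr1 (2.44, SE 0.71), Pdk4 (-0.62, SE 0.21) and Nr1h3 (0.60, SE 0.24) at the unadjusted p, with edgeR adjusted p of 0.180, 0.240 and 0.314.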

How the data were processed

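Ovary RNA libraries were aligned by the authors with TopHat to a mouse GRCm38.p4 genome, and Cufflinks 2.1.1 is also named in their processing notes; the strand setting of the counting is not given in the sources used here. The authors deposited 1 table with raw read counts per gene and FPKM, that is, counts divided by gene length and library size, for each ovary. Library totals ran from 15761789 to 21318254 counts, and no 2 libraries of a group were alike within counting noise. From the counts, genes with low counts were removed (filterByExpr), libraries were scaled by TMM to CPM, and all 10 ovaries were fitted with edgeR 4.0 (quasi-likelihood test, mean per group, Benjamini-Hochberg adjustment over 18956 genes; R 4.3). The threshold was a fold of 1.5 and p below 0.05, adjusted or not. The fit was tested on simulated counts first. Levels between genes were compared as the authors' deposited FPKM. Relations over ovaries used log2 CPM (prior count of 2) and 100000 permutations (SciPy). Alternatives were DESeq2 1.42, limma 3.58 on log2(FPKM + 0.1), other size factors, no filter, only the compared groups, a replicate block and leaving out ovaries. Numbers in the titles were not treated as a pairing. Correlations of same-numbered Aged and Control ovaries, as deviations from group means, were 0.138, -0.185 and 0.0696. Those of Aged+CF ovaries were -0.0874 with Control 32, 0.153 with Control 34 and -0.0613 with Aged 34. So few pairs cannot settle whether a shared number has a meaning.

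The 10 genes and all lists were chosen with earlier results of these data known. Named list genes were up to 3 called genes with the largest fold change per list and comparison (at the adjusted p, else the unadjusted p); like genes were the 3 with the highest r for each member with at least 1 CPM on average. Gene positions are from GENCODE M21 (GRCm38), matched by Ensembl ID. A result among the listed genes downstream of the adiponectin receptors is not reported here.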

Additional observations from a re-analysis of the deposited data

How the results depend on the processing

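Leaving out each ovary in turn, the number of the 10 genes called in Aged against Control ran from 0 to 1 at the adjusted p and from 0 to 4 at the unadjusted p, the 4 being Adipoq, Lep, Lepr and Retn without Aged 34, and the 0 without Control 34. In Aged+CF against Aged it ran from 1 to 2 at the unadjusted p, with Lep and Lepr in place of Adipor2 without Aged 34. At the adjusted p, limma on FPKM called 0 of the 10 in Aged against Control, since the log2 fold change of Adipor2 was 0.49, and DESeq2 called 1, Adipor2, in Aged+CF against Aged. At the unadjusted p in Aged+CF against Aged, the fit of the compared groups alone called 2 (Adipor2 and Fabp4) and limma called 0. Control 33 and Aged 34, the ovaries with the highest Ovgp1, were left out together, an alternative chosen after seeing the data. There, 0 were called at the adjusted p and 3 at the unadjusted p (Adipoq, Lep, Lepr) in Aged against Control. In Aged+CF against Aged, 2 (Lep, Lepr) were called at the unadjusted p in that fit. Without Aged 33 and Aged 34, also chosen after seeing the data, which leaves 1 Aged ovary that is assumed to vary like the others, 0 were called at the adjusted p in Aged against Control and 0 at the unadjusted p in Aged+CF against Aged. With the replicate block, which stands for a shared number only, Adipor2 had a log2 fold change of 0.70 and an adjusted p of 0.0632 in Aged against Control, so 0 of the 10 were called, and calls over all genes went from 2096 to 80. Over all genes, edgeR called 1 in Aged+CF against Aged where DESeq2 called 445, limma 6 and the fit without Aged 34 called 556, and 34 in Aged+CF against Control where DESeq2 called 509, limma 67 and the fit of the compared groups alone 487.

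Signs that turned belonged to log2 fold changes that did not pass the threshold. Leaving out 1 ovary, the ranges in Aged against Control were -2.63 to 0.22 for Adipoq, -0.43 to 0.28 for Cdh13, -6.61 to 0.66 for Lep, -2.75 to 0.32 for Retn, -0.21 to 0.15 for Pparg and -0.23 to 0.23 for Plin1. In Aged+CF against Aged they were -1.07 to 1.77 for Adipoq, -0.23 to 0.0435 for Adipor1, -1.16 to 6.10 for Lep, -1.24 to 1.71 for Retn and -0.40 to 0.0066 for Pparg. In Aged+CF against Control they were -0.0987 to 0.0816 for Adipor2, -0.145 to 0.0410 for Lepr and -0.43 to 0.31 for Fabp4. In Aged against Control, Cdh13 was at 0.0229 with DESeq2 size factors, 0.0179 with the replicate block and 0.0259 with DESeq2, Pparg at 0.0142 with DESeq2 size factors and 0.0152 with DESeq2, and Lep at -0.79 with the block and -0.46 with limma. In Aged+CF against Aged, the block gave 0.56 for Adipoq, 0.61 for Lep, 0.85 for Retn and 0.0204 for Plin1, and limma gave 0.91, 0.29 and 0.70 for Adipoq, Lep and Retn. Fabp4 in Aged+CF against Control was at 0.43 with the block and 0.12 with limma. Without Control 33 and Aged 34, Lep was at -6.49 and Pparg at 0.15 in Aged against Control, Adipoq, Lep and Retn were at 1.77, 6.08 and 1.71 in Aged+CF against Aged, and Adipor2 and Fabp4 were at 0.0116 and 0.0098 in Aged+CF against Control. Without Aged 33 and Aged 34, Lep was at -6.64 and Fabp4 at -0.0562 in Aged against Control, Adipoq, Adipor1, Cdh13, Lep, Retn and Plin1 were at 0.89, 0.0239, 0.25, 6.14, 0.78 and 0.19 in Aged+CF against Aged, and Adipor2 was at 0.0034 in Aged+CF against Control. The fits of Lep without Aged 34 rest on Aged ovaries at 0 reads and are no bound on its change. The receptor ratio kept its sign in each alternative run; most of those designs are too small for p to pass the threshold. Each listed gene named as called in Aged against Control lost its call with the replicate block. In Aged+CF against Aged, Nampt, Pik3r1, C1qtnf4 and Acsl1 gained a call without Aged 34, and Fabp5 without Aged 31. With DESeq2 on all ovaries, Irs2, Thrsp, Fabp5 and Nampt gained a call there (DESeq2 adjusted p of 0.00672, 0.00783, 0.0166 and 0.0186). Pck1 gained a call with DESeq2 in Aged+CF against Control (DESeq2 adjusted p = 0.0201). The causes were not tested.

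With 3 or 4 ovaries per group, the standard error of the log2 fold change was 0.12 to 0.21 for Adipor1, Adipor2 and Pparg and 0.30 to 1.34 for the other members, which limits what size of change could be seen.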
